A study of Mus musculus with 96 samples.

Results

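Dppa2, Dppa3, Dppa4 and Dppa5a, the developmental pluripotency-associated genes examined here, were followed through every RNA-seq comparison of a mouse embryonic stem cell (ESC) series and through its peak lists. They were chosen by name, with earlier results of these data known, and make up 4 of the 37620 genes listed in each count table. All 4 passed the filter on low counts in all 7 tables. In mm9, Dppa4 (ENSMUSG00000058550) spans chr16:48283848-48294405 on the + strand and Dppa2 (ENSMUSG00000072419) spans chr16:48310590-48319836 on the same strand, with 16185 bp between them. Dppa3 (ENSMUSG00000046323) spans chr6:122576428-122580290 on the + strand, and Dppa5a (ENSMUSG00000060461) spans chr9:78214859-78215984 on the − strand. All are protein-coding, and no other annotated gene overlaps any of them.

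DPPA2 and DPPA4 are DNA-binding proteins with a SAP domain that act as a pair on chromatin, and they are known as activators of the genes switched on in the early cleavage embryo, among them the Zscan4 cluster. DPPA3, also called STELLA or PGC7, is a germ cell and oocyte protein that protects maternal DNA methylation in the zygote and restrains UHRF1, the cofactor that brings the maintenance methyltransferase DNMT1 to replicated DNA. DPPA5A, also called ESG1, is an RNA-binding protein with a KH domain that is abundant in naive ESCs.

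The series asked what RYBP, a subunit of the non-canonical Polycomb repressive complex PRC1, does in mouse ESCs. It holds 96 samples, of which 26 are RNA-seq libraries in 13 groups of 2 and 70 are ChIP-seq or input libraries. All lines were grown in serum (15%) with 1000 U/mL of the cytokine LIF.

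In the Rybp knockdown, R1 ESCs with an shRNA against Rybp (shRybp) were compared with R1 ESCs carrying the empty vector (shEV). In the Wdr5 knockdown, R1 ESCs with shWdr5 were compared with the same 2 shEV libraries, so that both knockdowns share their controls. WDR5 is a core subunit of the complexes that methylate histone H3 at lysine 4. In the Rybp knockout, R7.15 ESCs with floxed Rybp were made Rybp-/- with 5 µM 4-hydroxytamoxifen (4-OHT) for 4 days and compared with Rybp+/+ cells of the line kept in ESC medium, so that 4-OHT and the loss of Rybp cannot be told apart there. In the phase disruption, R7.15 ESCs (RYBPfl/fl Rosa26::CreERT2) overexpressing RYBP with a 21-residue deletion were compared with the same cells overexpressing WT RYBP (WT.RYBP), both under 4-OHT. In RYBP overexpression, J1 ESCs with a Tet-on RYBP construct received doxycycline (DOX) or vehicle. R1 ESCs labelled TF-AA mutation were compared with WT ESC of the line, and the labels used here do not say which residues or protein the mutation is in. In the rTRS line, whose label gives a DOX-induced Rybp_Stat3 integration, DOX was compared with NTC. Among the peak lists, H3K4me3, H3K27ac, WDR5 and STAT3 were taken in Rybp+/+ and Rybp-/- R7.15 ESCs, RING1B in R1 ESCs with shEV or with an shRNA against Stat3 (shStat3), and RING1B and STAT3 in R1 ESCs labelled Tet.Rybp.Stat3, with the same integration as rTRS, without and with DOX. Nothing in the labels says that replicates came from separate cultures, so the p-values below measure only the spread between these samples, which may be technical.

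The sequences that carry the chromatin results are the 300-base windows at the summits of 4 peaks, given 5′ to 3′ on the + strand of mm9, with capitals marking a match to a searched motif. The H3K27ac peak between Dppa4 and Dppa2 (chr16:48303387-48303686, intergenic) and the summit of the broad H3K27ac peak upstream of Dppa5a (chr9:78221918-78222217, intergenic) are shown as the acetylated sites off the gene starts with high enrichment in Rybp+/+ cells. The H3K27ac peak 14 kb downstream of the Dppa3 start (chr6:122590325-122590624, intergenic) is shown since its listed fold enrichment was 4.97 in Rybp+/+ and 9.54 in Rybp-/- cells. The window in the first intron of Dppa3 (chr6:122577835-122578134) holds the only STAT3 peak listed within 10 kb of any of the 4 genes.
Dppa4-Dppa2 intergenic peak: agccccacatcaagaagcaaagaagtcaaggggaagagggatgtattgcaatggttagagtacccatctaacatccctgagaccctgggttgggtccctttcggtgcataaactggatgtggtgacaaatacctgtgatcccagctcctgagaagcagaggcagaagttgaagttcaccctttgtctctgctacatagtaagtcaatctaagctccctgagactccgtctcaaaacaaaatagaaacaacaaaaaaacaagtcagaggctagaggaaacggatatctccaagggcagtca
Dppa5a upstream peak: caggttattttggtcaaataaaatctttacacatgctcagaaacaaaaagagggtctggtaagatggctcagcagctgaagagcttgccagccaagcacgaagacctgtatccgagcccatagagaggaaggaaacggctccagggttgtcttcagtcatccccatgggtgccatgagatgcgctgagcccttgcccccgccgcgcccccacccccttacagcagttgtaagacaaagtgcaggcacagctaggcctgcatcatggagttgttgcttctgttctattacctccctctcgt
Dppa3 downstream peak: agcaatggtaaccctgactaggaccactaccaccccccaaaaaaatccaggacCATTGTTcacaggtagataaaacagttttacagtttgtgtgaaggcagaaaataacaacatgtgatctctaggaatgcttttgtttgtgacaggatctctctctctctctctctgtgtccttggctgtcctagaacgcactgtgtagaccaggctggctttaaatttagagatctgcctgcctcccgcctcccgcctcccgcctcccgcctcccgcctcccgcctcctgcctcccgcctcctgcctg
Dppa3 STAT3 peak: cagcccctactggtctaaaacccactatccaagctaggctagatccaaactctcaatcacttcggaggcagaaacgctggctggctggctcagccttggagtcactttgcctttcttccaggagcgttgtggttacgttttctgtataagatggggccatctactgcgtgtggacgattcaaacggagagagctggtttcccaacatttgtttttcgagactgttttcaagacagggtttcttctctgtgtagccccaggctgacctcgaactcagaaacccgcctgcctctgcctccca
Both strands were searched for a STAT motif (TTCNNNGAA), an E-box (CACGTG), an octamer (ATGCAAAT), a SOX motif (CTTTGTT or CATTGTT), an E2F motif (GGCGGGAA), a KLF motif (GGGTGTGG) and an ESRRB motif (TCAAGGTCA). The Dppa3 downstream window held 1 match, the SOX letters CATTGTT, and 10.2% of the 57642 H3K27ac windows of the list held a SOX match. The other 3 windows held none of these letters. Over all H3K27ac windows the other motifs were held by 0.862% (ESRRB) to 8.19% (STAT), and over the 30663 STAT3 windows of the list to which the Dppa3 window belongs by 0.45% (ESRRB) to 9.05% (E-box), with TTCNNNGAA in 5.76%. GC content was 46.3% at the Dppa4-Dppa2 window, 52.7% at the Dppa5a and Dppa3 downstream windows, against a median of 50% in the H3K27ac list, and 51.7% at the STAT3 window of Dppa3, against a median of 61.7% in that list.

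Reads counted on genes ranged from 14512857 to 81049618 per library. The shEV libraries appear in the Wdr5 knockdown table with 50.9% and 50.6% of the reads they have in the Rybp knockdown table. Rybp was lower in the libraries labelled shRybp and Rybp-/- and higher with DOX in Tet.RYBP, and Wdr5 was lower with shWdr5. Rybp RNA also differed between the phase disruption groups (adjusted p under 0.05 by edgeR). The level of Rybp RNA and the deletion cannot be told apart there. In the rTRS table, Rybp was at 113 and 110.5 CPM (read counts scaled to the normalized library size) in NTC and at 102 and 99.8 CPM in the libraries labelled DOX (log2 fold change −0.15 ± 0.065, SE, adjusted p = 0.076 by edgeR), so the counts do not show the induction that the label names. Stat3 rose there from 159 and 172 to 191 and 188 CPM (log2 fold change 0.20, adjusted p = 0.026). Whether the labels of these columns are crossed, and whether the construct's transcript is counted on Rybp, cannot be told apart here. Every direction given below for rTRS is therefore one between libraries labelled DOX and NTC, and the sign of each change within rTRS would turn if the labels were crossed. All 20 ESC markers, among them Pou5f1, Sox2 and Nanog, had reads in every library, with a summed level between 4582 and 12631 CPM.

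Per transcript length, the 4 genes differed widely in level (RPKM, reads scaled to transcript length and library size, each table normalized on its own). Dppa5a ranged from 821 to 2729 RPKM over the 28 columns and was never below the 99.7th percentile of the tested genes of a table. Dppa4 ranged from 41.4 to 107 RPKM and Dppa2 from 14.4 to 165 RPKM. Dppa3 ranged from 0.386 to 74.3 RPKM, which is from the 15.0th to the 95.3rd percentile. Dppa3 was thus the only member that passed from the low to the high end of expression among these libraries, and the plot of levels by library shows that the high columns are those of the R7.15 line.

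**Figure D1:**
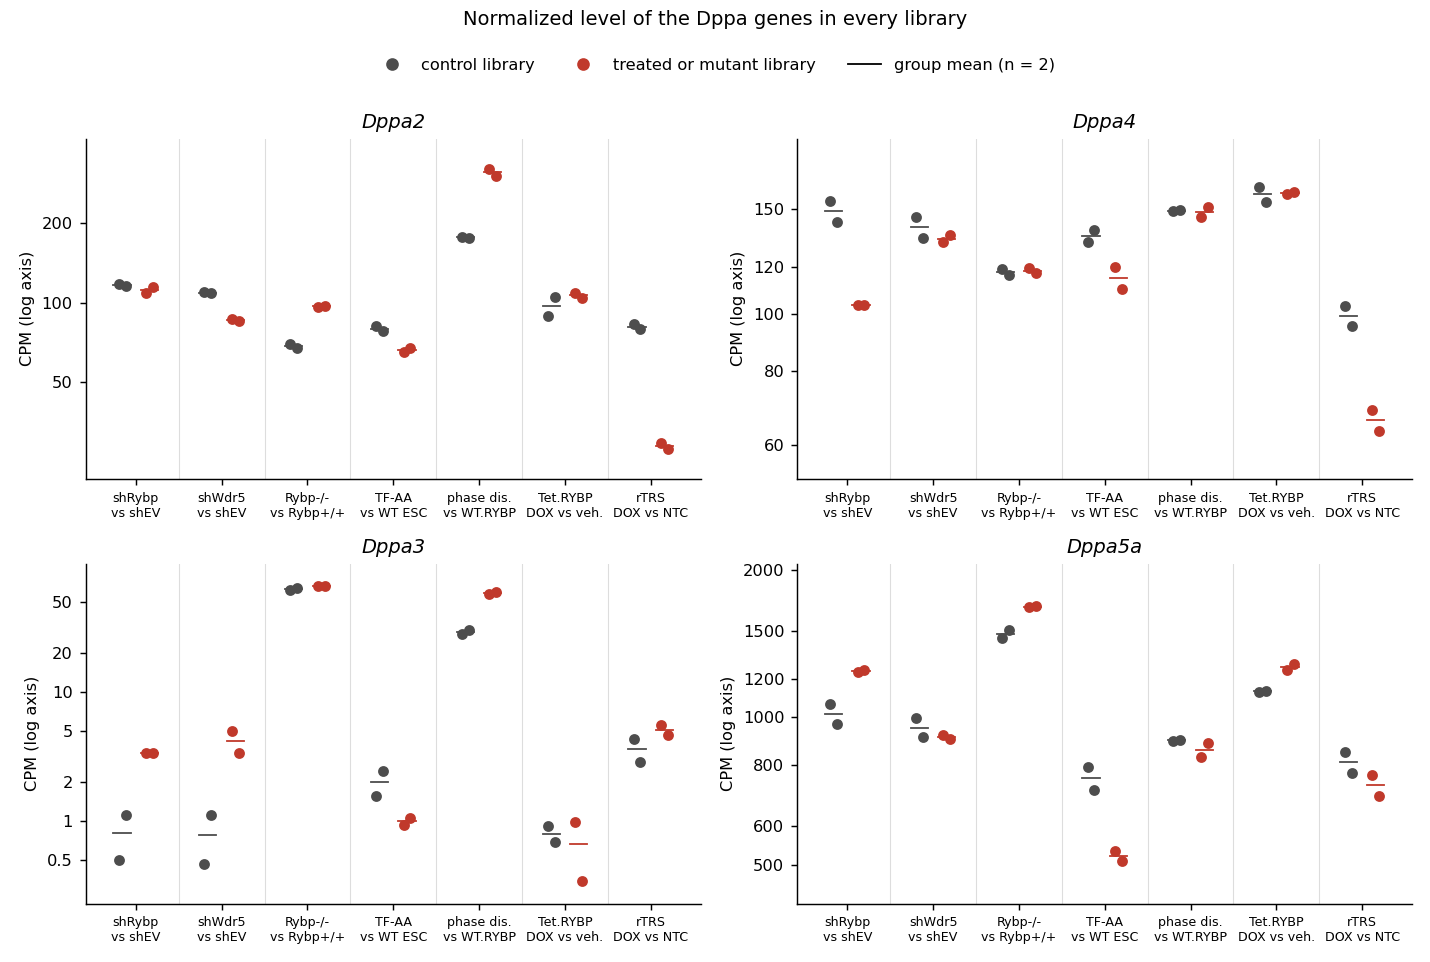
Normalized level in CPM (y axis, logarithmic) of Dppa2, Dppa4, Dppa3 and Dppa5a in every library of the 7 RNA-seq comparisons, with control libraries in grey, treated or mutant libraries in red, and the mean of each group of 2 as a line. Dppa3 lies at 28.2 to 66.3 CPM in the 8 R7.15 libraries and at 0.344 to 5.55 CPM in all others, while Dppa5a stays between 508 and 1689 CPM.

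The number of members past an adjusted p of 0.05 (edgeR quasi-likelihood test, Benjamini-Hochberg adjustment over all genes tested) is given beside the share of all tested genes past it. The Rybp knockdown called 3 of the 4 members, 2 higher and 1 lower, where 52.7% of all tested genes were called. The Wdr5 knockdown called 2, of which 1 was higher and 1 lower, against 63% of all genes, and the Rybp knockout called 2, both higher, against 45.5%. The phase disruption called 2, both higher, against 33% of all genes. RYBP overexpression called 1, which was higher, against 6.02%. The rTRS libraries labelled DOX called 2, both lower, against 43.4%. The TF-AA mutation called all 4, each lower, against 30.5%, although 3 of these calls are lost under some alternatives given with each gene below. Over the 28 tests, 8 were higher, 8 lower and 12 not called, and no member was called in all 7 comparisons.

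**Figure D2:**
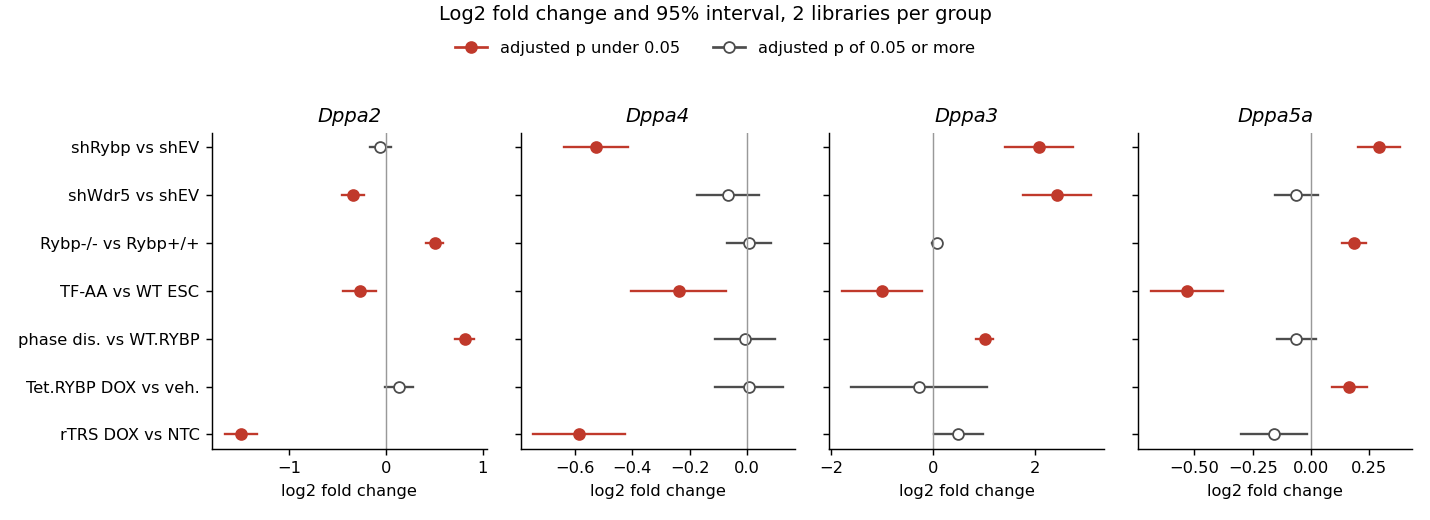
Log2 fold change (x axis) of each Dppa gene in the 7 comparisons (rows), with the 95% interval of the edgeR quasi-likelihood fit as a line, filled red where the adjusted p is under 0.05 and open where it is not; 2 libraries per group. Dppa2 runs from −1.50 in rTRS to 0.81 in the phase disruption, Dppa3 reaches 2.43 with shWdr5, and Dppa4 lies at or below 0.01 throughout.

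Dppa2, the SAP-domain partner of Dppa4, was called in 5 comparisons, higher in 2 and lower in 3. In the phase disruption it stood at 178 and 176 CPM in WT.RYBP and at 321 and 301 CPM with the deletion. Its level there was 1.75-fold higher (log2 fold change 0.81 ± 0.048, SE, adjusted p = 2.3e-15 by edgeR), and the groups did not overlap. With Rybp knocked out it stood at 69.8 and 67.5 CPM in Rybp+/+ and at 96.7 and 97.6 CPM in Rybp-/-. The gain was 1.41-fold (log2 fold change 0.50 ± 0.041, adjusted p = 6.0e-12), with both Rybp-/- libraries above both Rybp+/+ libraries.

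The difference of Dppa2 was largest in size between the rTRS libraries labelled DOX and NTC, where it was lower by the labels and would be higher by as much on the log2 scale if they were crossed. It went from 83.0 and 79.3 CPM in NTC to 29.5 and 28.0 CPM, which is 35.4% of the NTC level (95% interval 31.5 to 39.8%; log2 fold change −1.50 ± 0.078, adjusted p = 1.2e-08 by edgeR). With shWdr5 it went from 109.6 and 109 to 87.2 and 85.4 CPM (log2 fold change −0.34 ± 0.053, adjusted p = 6.3e-06). In the TF-AA mutation it went from 81.9 and 78.0 to 65.0 and 67.4 CPM, a log2 fold change of −0.27 ± 0.084 (adjusted p = 0.015). In each of these 3 comparisons both treated libraries lay below both controls. The TF-AA call of Dppa2 was lost under upper-quartile normalization and without either TF-AA replicate 1 or 2, with adjusted p from 0.0015 to 0.22 over the alternatives.

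Dppa2 was not called in the other 2 comparisons. With shRybp it was at 117 and 116 CPM in shEV and at 109 and 115 CPM, and the 95% interval of its log2 fold change ran from −0.17 to 0.049. With DOX in Tet.RYBP it was at 88.8 and 105 CPM in vehicle and at 109 and 104 CPM, with an interval from −0.0086 to 0.28. The vehicle libraries spread more widely than the DOX libraries there, and without vehicle replicate 2 the gene was called (log2 fold change 0.26).

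Dppa4, whose protein binds DPPA2, was called in 3 comparisons and was lower in each. In the Rybp knockdown it fell from 155 and 143 CPM in shEV to 103.5 and 103.3 CPM in shRybp (log2 fold change −0.53 ± 0.053, adjusted p = 1.3e-07 by edgeR). Between rTRS libraries labelled DOX and NTC it fell from 103.1 and 95.3 to 68.7 and 63.4 CPM (log2 fold change −0.59 ± 0.074, adjusted p = 3.8e-05). Neither pair of groups overlapped. In the TF-AA mutation Dppa4 went from 132 and 139 to 119.7 and 110.0 CPM (log2 fold change −0.24 ± 0.080, adjusted p = 0.027). This call was lost under upper-quartile normalization and without either TF-AA replicate 1 or 2, with adjusted p from 0.0036 to 0.38 over the alternatives.

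In the remaining 4 comparisons Dppa4 was held within narrow bounds. Its log2 fold change had a 95% interval from −0.067 to 0.084 in the Rybp knockout, where the libraries were at 118.96 and 116 CPM in Rybp+/+ and at 119.5 and 117 CPM in Rybp-/-. The interval ran from −0.11 to 0.098 in the phase disruption (149 and 149.7 against 146 and 151 CPM) and from −0.11 to 0.13 with DOX in Tet.RYBP (164 and 154 against 159 and 160.4 CPM). With shWdr5 the values were 145 and 134 CPM against 132 and 136 CPM, with an interval from −0.17 to 0.044. The sign of these small differences changed between alternatives in the Rybp knockout, the phase disruption and Tet.RYBP, and with shWdr5 Dppa4 was called under upper-quartile normalization (log2 fold change −0.12).

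The neighbouring pair thus did not move together in all comparisons. Dppa2 and Dppa4 were both lower in the TF-AA mutation and between rTRS libraries, Dppa2 alone was called in the Rybp knockout, the phase disruption and the Wdr5 knockdown, and Dppa4 alone in the Rybp knockdown. The difference between the 2 genes was not itself tested within a comparison. Over the 28 columns, centred on each table, log2 CPM of Dppa2 and Dppa4 had a Pearson r of 0.63, a description over columns in which both shEV libraries enter in 2 tables. Ordered by level, Dppa2 was lowest in rTRS libraries labelled DOX, then in TF-AA mutation (65.0 to 67.4 CPM), Rybp+/+ (67.5 to 69.8 CPM), WT ESC (78.0 to 81.9 CPM) and NTC (79.3 to 83.0 CPM), and highest in WT.RYBP and the phase disruption. WT ESC and NTC overlap, and shRybp (109 to 115 CPM) overlaps with shEV of the Wdr5 table and with DOX in Tet.RYBP (104 to 109.0 CPM). For Dppa4, the rTRS libraries labelled DOX were lowest, NTC (95.3 to 103.1 CPM) and shRybp (103.3 to 103.5 CPM) followed without a gap between them beyond the spread, and the J1 groups were highest, with vehicle overlapping shEV of the Rybp knockdown table. These orders set side by side tables that were normalized separately.

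Dppa3, the germ cell protein that restrains UHRF1, gained the most in relative terms and from a very low level. In the Rybp knockdown it had 20 and 41 reads in shEV (exact Poisson 95% intervals 12.2 to 30.9 and 29.4 to 55.6, counting error only) and 188 and 153 reads in shRybp, or 0.506 and 1.11 against 3.41 and 3.41 CPM. That is 4.23-fold higher (95% interval 2.66 to 6.72; log2 fold change 2.08 ± 0.32, adjusted p = 2.1e-05 by edgeR). With shWdr5 it had 10 and 22 reads in shEV and 108 and 71 reads in shWdr5, at 0.468 and 1.11 against 5.05 and 3.41 CPM (log2 fold change 2.43 ± 0.32, adjusted p = 7.7e-07). All 4 shRNA libraries lay above both shEV libraries, which are the same ones in both comparisons. Leaving out 1 library moved the log2 fold change of Dppa3 from 1.604 to 2.74 with shRybp and from 1.92 to 3.16 with shWdr5, and the calls held.

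In the R7.15 line Dppa3 was abundant before any treatment. In the phase disruption it went from 28.2 and 30.1 CPM in WT.RYBP to 57.7 and 60.0 CPM, a 2.02-fold gain (log2 fold change 1.01 ± 0.080, adjusted p = 3.3e-12 by edgeR). In the Rybp knockout it stood at 61.4 and 64.4 CPM in Rybp+/+ and at 66.1 and 66.3 CPM in Rybp-/-, with a 95% interval of the log2 fold change from −0.018 to 0.16 and an adjusted p of 0.19. The knockout groups do not overlap, but their gap is smaller than the spread within Rybp+/+, and Dppa3 was called there only under upper-quartile normalization (log2 fold change 0.13, adjusted p = 0.016, in a range from 0.016 to 0.65 over the alternatives).

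Dppa3 was low in R1 and J1 cells and its counts limit what can be seen there. In the TF-AA mutation it had 33 and 50 reads in WT ESC and 19 and 20 reads in the mutation (log2 fold change −1.003 ± 0.38, adjusted p = 0.047 by edgeR). This call did not hold with DESeq2 (log2 fold change −1.01), under upper-quartile normalization (−0.92), or without WT ESC replicate 2, TF-AA replicate 1 or TF-AA replicate 2 (down to −0.66), with adjusted p from 0.013 to 0.35 over the alternatives. With DOX in Tet.RYBP the gene had 33 and 24 reads in vehicle and 31 and 12 reads with DOX, and a difference was not detectable at this depth (95% interval of the log2 fold change −1.61 to 1.05). Between rTRS libraries it had 223 and 155 reads in NTC and 288 and 239 in those labelled DOX (log2 fold change 0.50 ± 0.22, adjusted p = 0.086). That value passed the threshold without NTC replicate 1, without DOX replicate 2, without the low-count filter and with replicate number as a block, and its adjusted p ranged from 0.0042 to 0.48. Ordered by level, Tet.RYBP DOX (0.344 to 0.992 CPM), Tet.RYBP vehicle (0.695 to 0.914 CPM) and shEV (0.468 to 1.11 CPM) and TF-AA mutation (0.944 to 1.07 CPM) overlap at the bottom, WT ESC (1.58 to 2.47 CPM) follows, and shRybp, shWdr5 and both rTRS groups form a chain of overlaps between 2.89 and 5.55 CPM, below the R7.15 groups.

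Dppa5a, the KH-domain RNA-binding protein, changed by small amounts from a high level. With shRybp it went from 1064 and 970.2 CPM to 1237 and 1252 CPM (log2 fold change 0.29 ± 0.043, adjusted p = 1.4e-05 by edgeR). Between Rybp+/+ and Rybp-/- cells it went from 1455 and 1512 to 1682 and 1689 CPM (log2 fold change 0.18 ± 0.026, adjusted p = 4.8e-07). With DOX in Tet.RYBP it went from 1125 and 1135 to 1248 and 1286 CPM (log2 fold change 0.16 ± 0.038, adjusted p = 0.0052). Dppa5a was therefore slightly higher both where Rybp was lowered and where it was raised, with no overlap between the groups in any of the 3 comparisons. The Tet.RYBP call was lost without DOX replicate 1 (log2 fold change 0.19) or DOX replicate 2 (0.14), with adjusted p from 8.2e-13 to 0.38 over the alternatives.

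The TF-AA mutation lowered Dppa5a from 793 and 712 CPM to 533 and 508 CPM, 69.2% of WT ESC (95% interval 62.1 to 77.1%; log2 fold change −0.53 ± 0.076, adjusted p = 7.7e-06 by edgeR). This was its lowest level among the 14 groups of columns, and the only TF-AA call on a member that held under all 10 alternatives. Dppa5a was not called with shWdr5 (996 and 910.5 against 921 and 905 CPM; 95% interval of the log2 fold change −0.15 to 0.028), in the phase disruption (897 and 898 against 832 and 885 CPM; −0.15 to 0.020) or between rTRS libraries labelled DOX and NTC (764 and 690.1 against 851 and 771 CPM; −0.30 to −0.016, adjusted p = 0.068). With shWdr5 its sign turned without shEV replicate 1 (0.0059) and it was called without shEV replicate 2 (−0.13), and in the phase disruption it was called without replicate 2 of the deletion (−0.11). The rTRS value passed the threshold under 5 of the 10 alternatives, with adjusted p from 3.1e-05 to 0.43. Ordered by level, Dppa5a was highest in the 2 knockout groups and next in the Tet.RYBP and shRybp groups, of which DOX in Tet.RYBP (1248 to 1286 CPM) and shRybp (1237 to 1252 CPM) overlap.

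Whether a lowered Rybp acted alike on the 4 genes in both systems was tested as the difference between the log2 fold changes of the knockdown and the knockout. Of the members 3 differed, where 40.5% of all tested genes did. They were 1 in the higher direction, against 18.2% of all genes, and 2 in the lower direction, against 22.2%. Dppa3 responded more with shRybp than with the knockout, by 1.99 ± 0.21 (SE) on the log2 scale (adjusted p = 8.8e-08 by edgeR). The joint fit shares its variance estimate between both tables, so this SE is below the 0.32 of the knockdown alone. It does not measure the spread of the low-count R1 libraries by themselves. Knockdown minus knockout was negative for Dppa4, which was lower with shRybp alone, and for Dppa2, which was higher in the knockout alone, at −0.56 ± 0.063 (adjusted p = 1.9e-07) and −0.58 ± 0.064 (adjusted p = 1.2e-07). Dppa5a, higher in both, differed by 0.084 (95% interval −0.020 to 0.19, adjusted p = 0.20). Cell line (R1 or R7.15), method (shRNA or floxed allele with 4-OHT) and time cannot be told apart in this contrast.

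The same contrast was made between the 2 DOX-treated lines, with the rTRS libraries taken by their labels. The change in rTRS minus that in Tet.RYBP was −1.66 ± 0.11 for Dppa2 (adjusted p = 4.6e-09 by edgeR), −0.62 ± 0.092 for Dppa4 (adjusted p = 5.6e-05) and −0.35 ± 0.078 for Dppa5a (adjusted p = 0.0023). These 3 of 4 members stand against 29% of all tested genes. For Dppa3 the difference was 0.77 with a 95% interval from −0.38 to 1.91, and leaving out 1 library moved it from 0.18 to 1.70. These values hold for the labels as given. With crossed rTRS labels that of Dppa2, whose change was −1.50 in rTRS and 0.14 in Tet.RYBP, would turn positive. So would that of Dppa4, with −0.59 in rTRS and 0.0083 in Tet.RYBP. The difference of Dppa5a, whose change was −0.16 in rTRS and 0.16 in Tet.RYBP, would be near 0. Rybp itself was 3.77-fold higher with DOX in Tet.RYBP (135 and 145 against 522 and 535 CPM) and was not higher in rTRS.

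Markers of other cell types moved in several tables together with the Dppa genes, and their part in the values of the Dppa genes was not tested. In bulk RNA, fewer cells of a type and less RNA per cell cannot be told apart. In the rTRS libraries labelled DOX, where Dppa2 and Dppa4 were lower, all 5 tested of 6 trophectoderm markers were higher, where 23% of all genes were, with a summed level of 144.5 and 133 CPM in NTC and 968 and 896 CPM with DOX. Of the 20 ESC markers 17 were lower and 1 higher, where 20.4% of all genes were lower, with the sum going from 7866 and 7607 to 4839 and 4582 CPM. Of 7 formative and primitive streak markers 4 were higher (118.8 and 113.5 against 207 and 205 CPM), and of 6 tested primitive endoderm markers 1 was higher and 1 lower (9.49 and 7.86 against 21.7 and 20.8 CPM).

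In the Rybp knockdown, where Dppa3 and Dppa5a were higher and Dppa4 lower, 26.8% of all genes were higher and 26% lower. There 10 of 20 ESC markers were lower and 5 higher, and their sum went from 11534 and 12631 to 9331 and 9140.1 CPM. Of the trophectoderm markers 5 of 6 were higher (42.8 and 46.0 against 195 and 213 CPM), of the primitive endoderm markers 5 of 7, with 1 lower (17.3 and 21.1 against 31.3 and 33.4 CPM), and of the fibroblast markers all 4 tested (18.7 and 18.9 against 32.3 and 31.5 CPM). In the Wdr5 knockdown, where Dppa3 was higher and Dppa2 lower, 31.5% of all genes were called in each direction. There 15 of 20 ESC markers were lower and 3 higher (10886 and 11934 against 8688 and 8796 CPM). Of 6 tested formative and primitive streak markers 3 were higher and 2 lower, with the sum going from 50.7 and 53.2 to 129 and 130.1 CPM. Of 7 primitive endoderm markers 4 were higher and 1 lower, and of 5 tested trophectoderm markers 3 were higher.

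In the Rybp knockout, where 22.8% of all genes were higher and 22.7% lower, all 6 trophectoderm markers were higher (57.0 and 61.2 against 79.2 and 83.3 CPM). Of 8 fibroblast markers 7 were higher there (57.9 and 56.9 against 116 and 122 CPM, none at 0), and 9 ESC markers were higher and 7 lower. In the phase disruption, with 16.1% of all genes higher and 17% lower, 4 of 5 tested trophectoderm markers were higher (258 and 272 against 304 and 321 CPM), 3 of 8 fibroblast markers (432 and 427 against 345 and 369 CPM) were lower, and 7 of 20 ESC markers were lower and 3 higher. Of 6 tested formative and primitive streak markers, 2 were lower in the knockout and 3 in the phase disruption. Primitive endoderm markers were higher for 3 of 7 in the knockout (8.94 and 10.1 against 18.1 and 16.9 CPM), 1 of 6 tested in the phase disruption and 2 of 5 tested in the TF-AA mutation (11.8 and 11.6 against 20.8 and 21.1 CPM). In the TF-AA mutation, where 14.4% of all genes were higher, all 3 tested trophectoderm and all 3 tested fibroblast markers were higher, at summed levels of at most 57.0 CPM, with Elf5, which defines trophoblast, at 0 in both WT ESC libraries. There 4 of 20 ESC markers were higher, 4 lower and 12 not called (8537 and 8386 against 8664 and 8598 CPM), where 16.1% of all genes were lower. In Tet.RYBP with DOX, 2 ESC markers were lower, against 2.39% of all genes, and no marker of another cell type was called. Lum and Dcn, which define fibroblasts, were at 0 in every library of the knockdown, TF-AA and Tet.RYBP tables.

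The 2-cell-type genes that DPPA2 and DPPA4 are known to activate did not move in 1 direction with the RNA level of the pair. Of 15 listed genes 10 were found in the tables, the Zscan4b to Zscan4f, Usp17l and Sp110 genes and Zfp352; Zscan4 and Usp17l members are near-identical copies, so the split of reads among them is uncertain. Their summed level rose from 69.8 and 70.2 CPM in shEV to 317 and 302 CPM in shRybp, with Dppa4 lower and Dppa2 not called, and from 76.4 and 73.0 to 718 and 683 CPM in the phase disruption, with Dppa2 higher and Dppa4 not called. In each of these comparisons all 10 were called higher, against 26.8% and 16.1% of all tested genes.

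In the Rybp knockout the 2-cell-type sum went from 0.763 and 0.621 CPM to 83.1 and 83.3 CPM, and in the TF-AA mutation from 1.24 and 0.543 CPM to 70.9 and 73.3 CPM. All 10 were called higher in both, while Dppa2 was higher in the first and lower in the second. With DOX in Tet.RYBP the sum went from 0.941 and 1.42 CPM to 7.39 and 9.38 CPM, and 3 of the 5 tested were higher. With so few reads in the controls of these 3 comparisons, genes could pass the low-count filter through the group where they are high, so these counts are a description and are not set against the share of all genes. The sum was lower with shWdr5, from 65.5 and 66.7 to 31.8 and 30.1 CPM with 6 of 9 tested genes lower (31.5% of all genes), and between rTRS libraries labelled DOX and NTC, from 40.6 and 42.5 to 20.7 and 21.4 CPM with 5 of 10 lower (20.4% of all genes). These were also comparisons in which Dppa2 was lower. The sums are set across tables normalized separately.

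**Figure D3:**
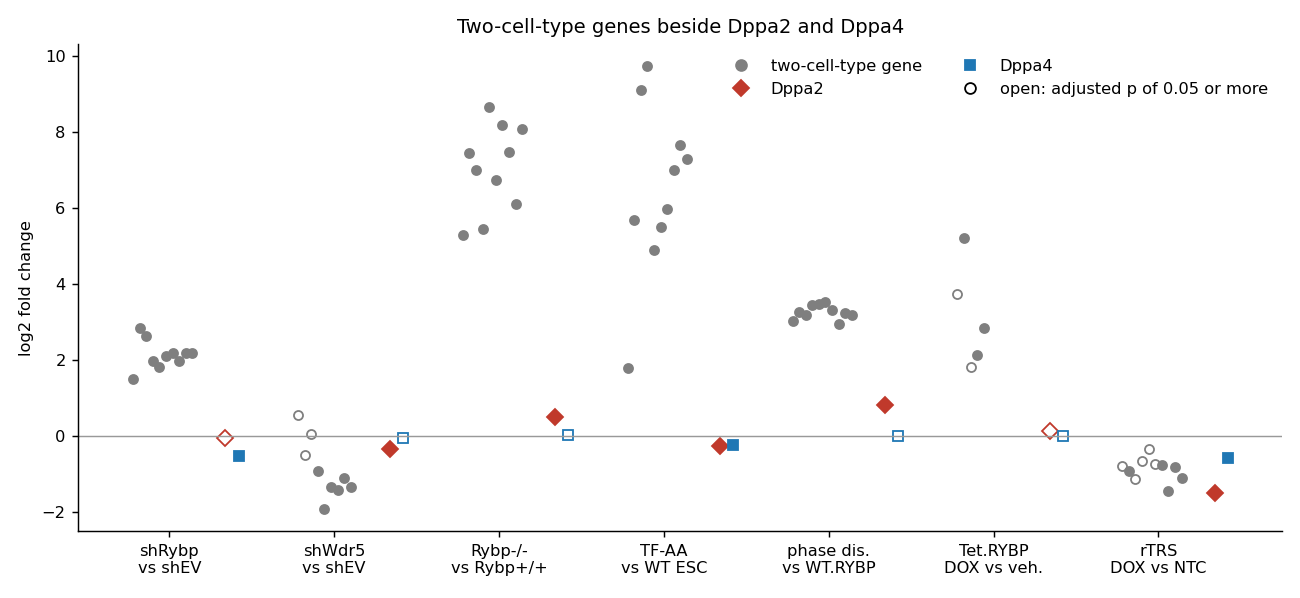
Log2 fold change (y axis) of each tested 2-cell-type gene (grey circles), Dppa2 (red diamonds) and Dppa4 (blue squares) in the 7 comparisons, filled where the adjusted p is under 0.05. In the Rybp knockout, the TF-AA mutation and Tet.RYBP the 2-cell-type genes have few or no reads in the controls. Their plotted fold changes there depend on the prior count of the fit. Dppa2 and Dppa4 stay between −1.50 and 0.81.

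Of the 10 genes of the DNA methylation machinery listed beside DPPA3, 8 were lower and 2 higher with shRybp, where Dppa3 rose (median log2 fold change −0.24, against 0.018 over all genes, of which 26% were lower). Uhrf1, the target of DPPA3, fell by 0.74 on the log2 scale, Tet1, a dioxygenase that oxidizes methylcytosine, fell by 0.74, and Dnmt3a, a de novo methyltransferase, fell by 0.67, while Tet3 rose by 0.50. With shWdr5, where Dppa3 also rose, 4 were lower and 3 higher, where 31.5% of all genes were called in each direction, and Uhrf1 fell by 0.48. In the phase disruption, the third comparison with a higher Dppa3, 6 were lower, against 17% of all genes, and 1 higher, and Dnmt3b fell by 0.76 and Uhrf1 by 0.17. The Rybp knockout, where Dppa3 was not called, had 6 lower, against 22.7% of all genes, and none higher, and Uhrf1 fell by 0.16 there too. In the TF-AA mutation, where Dppa3 was lower, 4 were lower, against 16.1% of all genes, and none higher, with Dnmt3l, a cofactor of de novo methylation, at a log2 fold change of −1.34 and Uhrf1 at −0.21. In Tet.RYBP with DOX, 2 were higher and 1 lower, against 3.63% and 2.39% of all genes. Between rTRS libraries labelled DOX and NTC, where Dppa3 was not called (log2 fold change 0.50), 6 were lower and 2 higher, against 20.4% and 23% of all genes, with a median of −0.21.

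Of the 7 listed KH-domain relatives of DPPA5A and their oocyte partners, 3 could be tested. Ooep, the next gene beside Dppa5a with tested counts (7932 bp away), was higher with shRybp (log2 fold change 0.24) and in the Rybp knockout (0.11), as was Dppa5a, and lower in the TF-AA mutation (−0.27), again as was Dppa5a. It was also lower with shWdr5 (−0.78) and between rTRS libraries labelled DOX and NTC (−1.11), where Dppa5a was not called. Khdc3 was lower in the TF-AA mutation (−0.89) and between those rTRS libraries (−2.82) and higher with shWdr5 (1.02) and with DOX in Tet.RYBP (0.73). Tle6 was called only in the phase disruption (0.48), where Dppa5a was not.

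The genes whose pattern was most like each member were taken by the Pearson r of log2 CPM, centred on each table, over the 28 columns and 13126 genes tested in all tables. They were AU018091 (r = 0.94), Gm7325 (0.90) and Mtf2 (0.90) for Dppa2, and Fndc3b (0.89), Vps8 (0.87) and Nrip1 (0.87) for Dppa3. For Dppa4 they were Cct6a, Gm11019 and Cnot10 (each 0.92), and for Dppa5a they were Cth (0.82), Hmox1 (0.81) and Aim2 (0.81). These values describe columns that share tables and, for shEV, libraries. Among the members, Dppa3 and Dppa4 had r = −0.43, Dppa2 and Dppa5a had 0.34, and the other pairs besides Dppa2 and Dppa4 lay between −0.092 and 0.21.

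The peak lists describe chromatin at the 4 genes, each list being made from merged replicates or from 1 library, so that no test between lists was possible. Fold enrichment, as listed by the peak caller, is given with its percentile in its own list. H3K4me3, a mark of active promoters, had a peak within 1 kb of the start of all 4 genes in both genotypes, where 66.4% of 22380 protein-coding genes in Rybp+/+ and 66.6% in Rybp-/- had one. H3K27ac, a mark of active promoters and enhancers, also had a peak within 1 kb of all 4 starts in both, against 50% and 52.9% of genes; at Dppa5a this is the end of the broad peak whose summit lies upstream. WDR5 had no peak within 10 kb of any of the 4 in either genotype, although 45.7% and 48% of protein-coding genes had a WDR5 promoter peak.

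The H3K27ac lists hold 57642 peaks in Rybp+/+ and 62669 in Rybp-/-, and the percentile of a peak moves with the number of weak peaks in its list. At the starts of Dppa2 and Dppa4 and between them, the listed fold enrichment of H3K27ac was higher in Rybp-/- cells. The peak at the Dppa2 start had a fold enrichment of 16.2 (percentile 90.8) in Rybp+/+ and 25.0 (97.0) in Rybp-/-, and that at the Dppa4 start had 18.8 (92.6) and 25.1 (97.1). The intergenic peak between them, whose sequence is given above, had 15.1 (89.8) and 16.2 (92.9). Weaker H3K27ac peaks went both ways, such as one in the Dppa2 body with 6.01 and 5.28 and one in the Dppa4 body with 3.40 and 3.15, against one at the Dppa2 end with 2.75 and 5.28. H3K4me3 at the starts stayed near the same rank, with 14.9 (64.3) and 14.6 (62.6) at Dppa2 and 24.1 (72.9) and 28.1 (74.5) at Dppa4. In RNA, Dppa2 was higher in Rybp-/- and Dppa4 was not called.

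At Dppa3, H3K27ac near the start had a fold enrichment of 7.65 (percentile 78.3) in Rybp+/+ and 8.53 (83.6) in Rybp-/-, and the downstream peak with the SOX letters had 4.97 (63.4) and 9.54 (85.6). In both genotypes this downstream peak straddles the outer edge of the 10 kb window, with most of its length outside. H3K4me3 at the start was at 19.8 (69.3) and 16.1 (64.2). At Dppa5a the broad upstream H3K27ac peak, of 11867 bp in Rybp+/+ and reaching over Ooep, had 23.6 (95.04) and 14.4 (91.5), and the downstream H3K4me3 peak had 12.7 (61.7) and 4.44 (26.9). H3K4me3 at the Dppa5a start stayed near the same rank, with 12.2 (61.0) and 11.7 (58.7). The RNA of Dppa5a was 1.14-fold higher in Rybp-/- cells, in which the upstream H3K27ac and downstream H3K4me3 fold enrichments were lower.

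**Figure D4:**
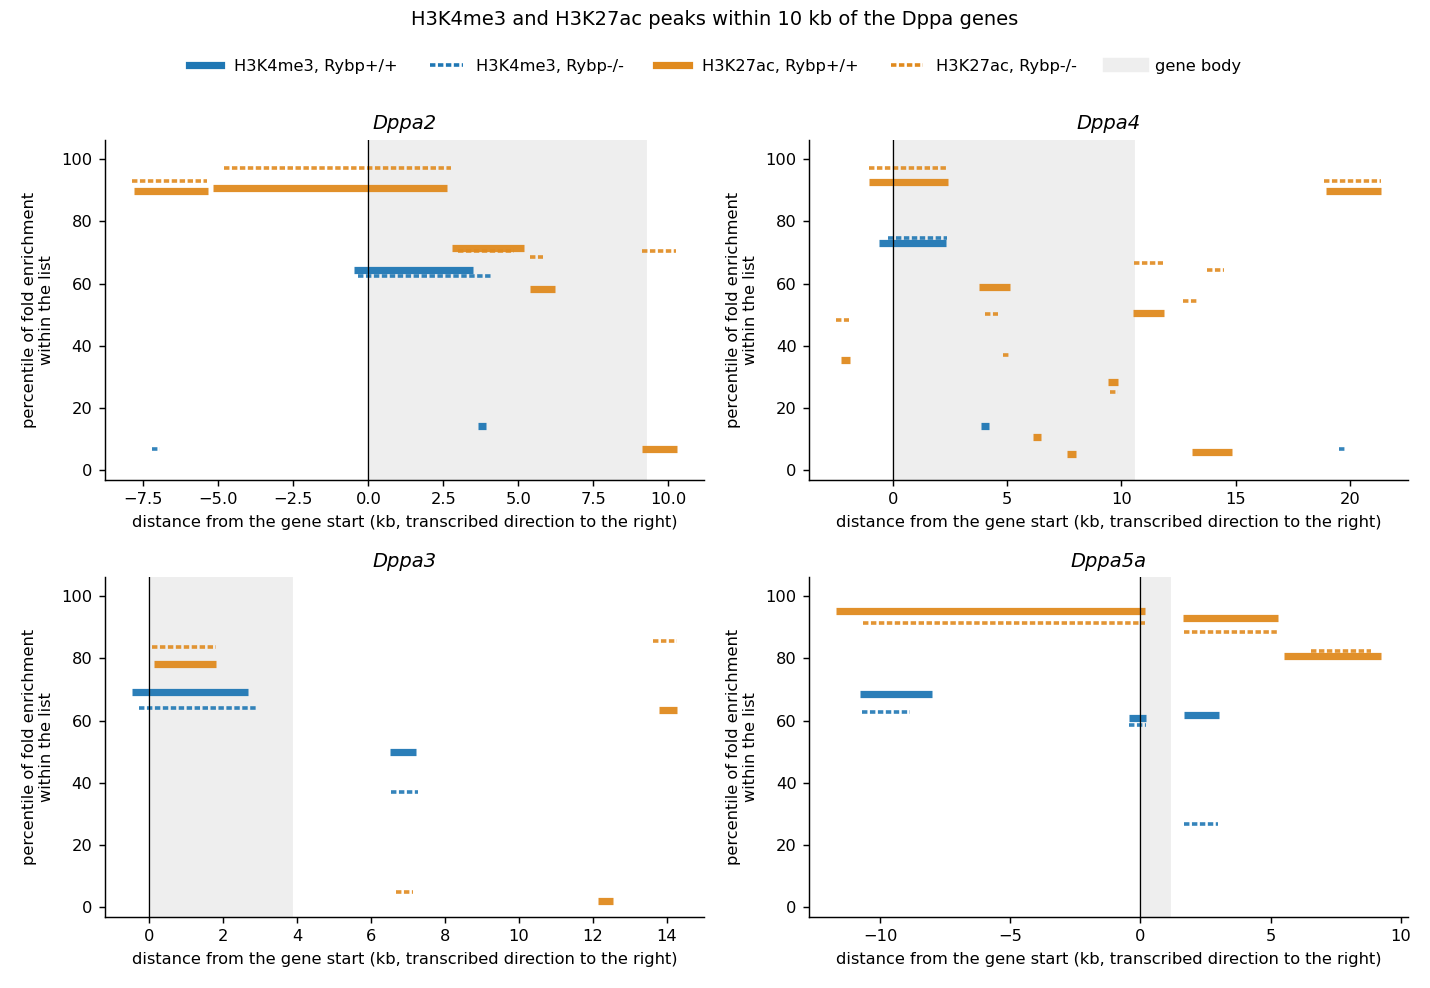
H3K4me3 (blue) and H3K27ac (orange) peaks within 10 kb of each Dppa gene, with Rybp+/+ as solid and Rybp-/- as dashed bars; the x axis is the distance from the gene start in kb and the y axis the percentile of fold enrichment within the list. The H3K27ac bars at the starts of Dppa2, Dppa4 and Dppa3 are higher in Rybp-/-, and that upstream of Dppa5a is lower.

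RING1B, the catalytic subunit of PRC1, and STAT3 were listed at Dppa3 and at no other member. A RING1B peak lay over Dppa3 in all 4 RING1B lists, with fold enrichments of 6.51 in shEV, 5.03 in shStat3, 3.54 in Tet.Rybp.Stat3 cells without DOX and 3.94 with DOX. In shEV and shStat3 the peak reached within 1 kb of a start, as for 44.6% and 40.4% of protein-coding genes, and in the other 2 lists it lay in the gene body only. A STAT3 peak over the first intron of Dppa3, within 1 kb of an annotated start, was listed in Tet.Rybp.Stat3 cells with DOX, at a fold enrichment of 3.11 and the 9.46th percentile of its list. That list holds 30663 peaks and covers 55.7% of promoters, against 2816 peaks and 8.56% without DOX. Neither STAT3 list of the R7.15 line had a peak within 10 kb of a member. Under a stricter −log10 q of 5, the STAT3 peak and both Tet.Rybp.Stat3 RING1B peaks at Dppa3 were no longer listed.

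**Figure D5:**
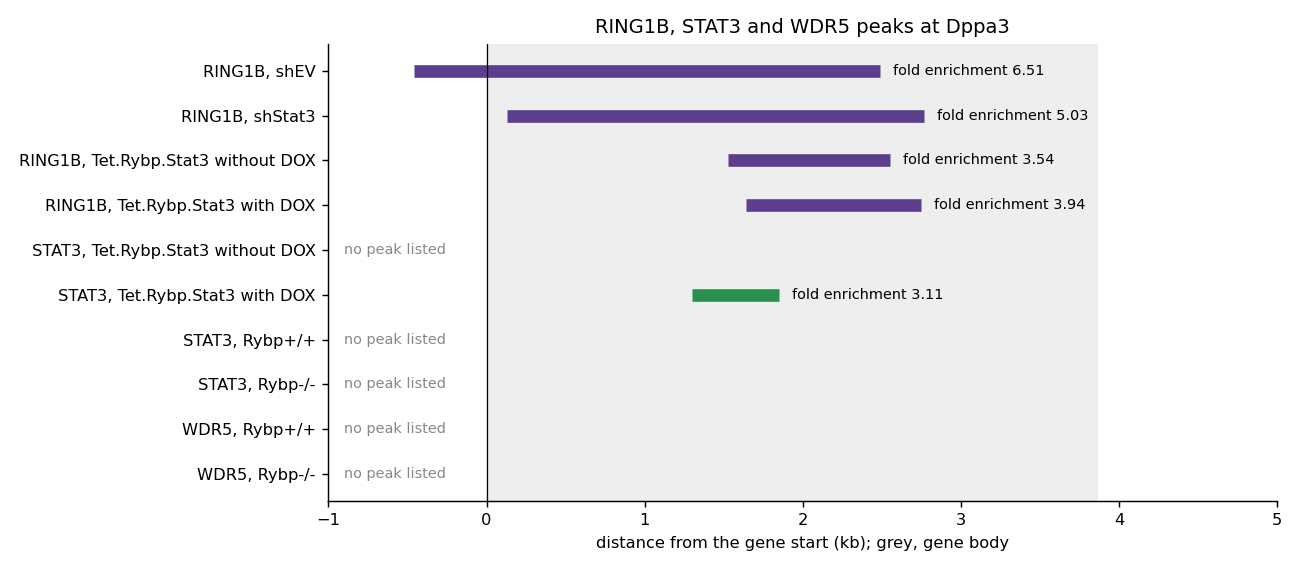
RING1B (purple), STAT3 (green) and WDR5 peaks at Dppa3 in each list (rows), with the x axis as distance from the gene start in kb, the gene body in grey and the listed fold enrichment beside each bar. RING1B is listed in 4 of 4 lists, STAT3 in 1 of 4 and WDR5 in neither list.

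Part of the reads of these genes may be shared with other loci. Aligned to mm9, the transcripts of Dppa2 matched 13 other loci over at least 100 bases, those of Dppa5a 11, those of Dppa4 7 and those of Dppa3 4. The highest identity was 98.98% for Dppa2, 100% for Dppa5a, 98.5% for Dppa4 and 97.8% for Dppa3. At the locus of highest identity the longest alignment was 1179, 245, 952 and 820 bases, in that order. Identity and length may come from different alignments there, and alignments at other loci may be longer. Reads that fit more than 1 place were left out of the counts, so the levels of the 4 genes are uncertain to that extent.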

How the data were processed

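RNA-seq of mouse ESCs was deposited as 7 tables of read counts per gene. Per the labels, the authors trimmed reads with Trim Galore, aligned them to mm9 with STAR and counted uniquely placed reads per gene with HTSeq; 4.31% to 19.4% of the alignments in the 6 tables that give them were not unique and were left out, as were all rows that name no gene. The deposited tables also hold a gene length. The authors' peak lists give a fold enrichment, a ratio over the background as the peak caller gives it, and −log10 p and q values; replicates were merged before calling in 10 of 14 lists. For the histone mark and WDR5 lists the study's methods name Bowtie2 and MACS2, and for the others the caller is not given in the sources used here.

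Each table was fitted on its own, 2 libraries against 2, with edgeR 4.0.16 (R 4.3.3): TMM normalization, filterByExpr, the quasi-likelihood test and Benjamini-Hochberg adjustment over all genes tested, called at an adjusted p of 0.05. CPM and RPKM use TMM library sizes. Contrasts between tables were fitted on both tables together, with a variance estimate shared between them. Promoters are 1 kb on each side of an annotated start, and peaks within 10 kb of a gene were taken with at least 1 bp of overlap. Copies were sought with BLAST+ 2.17.0. The scripts were tested on simulated counts. Replicate libraries differed by more than sampling noise (chi-square over df 2.10 to 13.2), so none was counted as a duplicate.

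The members and lists were chosen with earlier results of these data known. Named in the text were the 4 members, the genes manipulated on purpose, the 3 genes most alike to each member, neighbours within 100 kb, and listed genes by counts with 2 to 4 examples of largest change among those called; of the list genes, 6 were matched by an older symbol and 5 were not matched. Alternatives were other normalizations, DESeq2 1.42.0, the edgeR exact test, no low-count filter, a fold threshold, a replicate block, leaving out each library, other windows and a stricter q.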

Additional observations from a re-analysis of the deposited data

Results flagged for a closer look

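Each of these results was taken up because the change of a member differed between 2 systems by a test of the difference itself (edgeR interaction contrast, adjusted over all genes). Between the Rybp knockdown in R1 ESCs and the Rybp knockout in R7.15 ESCs, the log2 fold changes differed by 1.99 for Dppa3, by −0.56 for Dppa4 and by −0.58 for Dppa2. Dppa3 rose from very few reads in R1 cells and was already abundant in R7.15 cells, and Dppa2 was higher in the knockout and not called in the knockdown. Between the rTRS libraries and the Tet.RYBP libraries, the log2 fold changes with DOX differed by −1.66 for Dppa2, by −0.62 for Dppa4 and by −0.35 for Dppa5a, with the rTRS labels as given. If those labels were crossed, the differences of Dppa2 and Dppa4 would turn positive. The difference of Dppa5a (−0.16 in rTRS, 0.16 in Tet.RYBP) would be near 0. Groups of 2 libraries are too small for a check of single libraries that stand apart.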

How the results depend on the processing

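Of 376 values of the members under alternatives, 338 kept their direction and their side of the threshold and 368 kept their direction. Of 77 counts of called genes 63 stayed within 1.5 times the reported count, as did 205 of 224 counts of peaks, of which 184 were equal to it. No setting moved the median of all genes by more than 0.084 on the log2 scale.

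Under upper-quartile normalization, Dppa4 (−0.12) and Dppa5a (−0.12) with shWdr5, Dppa3 in the Rybp knockout (0.13) and Dppa5a between rTRS libraries (−0.22) became called, Dppa2 (−0.19), Dppa3 (−0.92) and Dppa4 (−0.16) in the TF-AA mutation were lost, and Dppa4 changed sign in the phase disruption (0.028) and Tet.RYBP (−0.0064). With DESeq2 Dppa3 in the TF-AA mutation was lost (−1.01) and the phase disruption count was 2980, against 4814. Without the low-count filter Dppa3 (0.50) and Dppa5a (−0.16) were called between rTRS libraries. With an absolute log2 fold change above 1 the counts were 2088 (Rybp knockdown), 2815 (Wdr5 knockdown), 1330 (Rybp knockout), 1176 (TF-AA mutation), 986 (phase disruption), 135 (RYBP overexpression) and 1953 (rTRS). The cause of these changes was not tested, apart from the added threshold.

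The replicate numbers do not pair the samples (correlations of same-numbered deviations −0.021 to 0.074). With replicate number as a block, Dppa3 (0.52) and Dppa5a (−0.16) became called between rTRS libraries, and no other call on a member changed.

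Leaving out 1 library gave −0.13 to 0.0059 for Dppa5a with shWdr5, −0.012 to 0.024 for Dppa4 in the knockout, −0.32 to −0.24 for Dppa2, −1.30 to −0.66 for Dppa3 and −0.30 to −0.18 for Dppa4 in the TF-AA mutation, whose count ran from 2724 to 4767 against 4412, with the low counts (2724 and 2733) without TF-AA replicate 1 and 2. It gave −0.039 to 0.019 for Dppa4 and −0.11 to −0.022 for Dppa5a in the phase disruption. In Tet.RYBP it gave 0.020 to 0.26 for Dppa2, −1.22 to 0.30 for Dppa3, −0.034 to 0.053 for Dppa4 and 0.14 to 0.19 for Dppa5a, with counts from 406 to 1566 against 899 (406 and 409 without a DOX library, 1566 and 1467 without a vehicle library). Between rTRS libraries it gave 0.23 to 0.83 for Dppa3 and −0.23 to −0.084 for Dppa5a. In the contrasts of comparisons it gave 1.51 to 2.65 for Dppa3 (knockdown and knockout; the ends without shEV replicate 1 and 2, called in each), 0.021 to 0.14 for Dppa5a (the same contrast; called without shEV replicate 1, adjusted p = 0.0077 by edgeR) and 0.18 to 1.70 for Dppa3 (rTRS and Tet.RYBP; called without Tet.RYBP DOX replicate 1, adjusted p = 0.043). A lone library left in a group is assumed to vary like the others.

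Among peaks within a window, 20 kb in place of 10 kb gave 4 H3K4me3 peaks at Dppa4 in Rybp+/+, 9 H3K27ac peaks at Dppa2 in each genotype, 1 WDR5 peak at Dppa3 in Rybp-/-, 2 RING1B peaks at Dppa3 in shEV, shStat3 and Tet.Rybp.Stat3 without DOX, and 1 at Dppa5a in shEV. With 5 kb, 1 H3K4me3 peak stayed at Dppa2 and Dppa4 in Rybp-/- and 1 H3K27ac peak at Dppa3 in Rybp+/+. At a −log10 q of 5, 1 H3K4me3 peak stayed at Dppa2 and Dppa4 in each genotype, 4 H3K27ac peaks at Dppa4 in Rybp+/+, and 0 at Dppa3 for STAT3 and RING1B in Tet.Rybp.Stat3 cells with DOX and for RING1B without DOX.

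Depth limits Dppa3 most, at 10 to 50 reads in the shEV, WT ESC, TF-AA and Tet.RYBP libraries, and 2 libraries a group limit every call.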

Other observations

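Germ cell genes, the group to which Dppa3 belongs by expression, were called in both directions. Of 12 tested, 7 were higher with shRybp, with shWdr5, in the Rybp knockout and in the TF-AA mutation, against 26.8%, 31.5%, 22.8% and 14.4% of all genes, and 8 in the phase disruption, against 16.1%, with 2 to 4 lower in each, where 16.1% to 31.5% of all genes were lower. With DOX in Tet.RYBP 4 were higher, against 3.63% of all genes, none lower and 8 not called. Taf7l, a germ cell paralogue of a general transcription factor subunit, rose by 2.42 on the log2 scale with shRybp and by 2.57 in the knockout, and Dazl, an RNA-binding protein of germ cells, rose by 1.78 and 1.56. Between rTRS libraries labelled DOX and NTC, 6 were lower and 1 higher, against 20.4% and 23% of all genes. Dppa3 itself was higher with shRybp, with shWdr5 and in the phase disruption, lower in the TF-AA mutation and not called in the other 3.

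Of 12 subunits of PRC1.6, the PRC1 variant that holds RYBP and PCGF6, 10 were lower with shRybp and 9 in the phase disruption, Rybp included, against 26% and 17% of all genes, and 2 and 3 were higher. In the Rybp knockout 6 were lower and 2 higher, against 22.7% and 22.8% of all genes. With shWdr5 5 were lower and 3 higher, against 31.5% each way, in the TF-AA mutation 1 lower and 2 higher, against 16.1% and 14.4%, and between rTRS libraries 5 lower and 2 higher, against 20.4% and 23%. In Tet.RYBP the 1 called was Rybp itself. Rybp is among the lower calls with shRybp and in the knockout and Wdr5, another of the 12, among those with shWdr5, all fixed by the manipulation. In the phase disruption both groups overexpress RYBP, so the call on Rybp there cannot be told apart from the level of the constructs. E2f6, its DNA-binding repressor, was higher with shRybp (0.73) and in the phase disruption (0.41), as it was with shWdr5 (0.48), in the Rybp knockout (0.64) and in the TF-AA mutation (1.12).

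Among neighbours of Dppa3, Apobec1, a cytidine deaminase 23966 bp from it, was higher with shRybp (log2 fold change 1.09) and shWdr5 (1.72), as Dppa3 was, and lower in the Rybp knockout (−0.73), where Dppa3 was not called. Nanog, 77217 bp away, was higher with shRybp (0.22), in the Rybp knockout (0.48), in the phase disruption (0.48) and in the TF-AA mutation (0.24), and lower with shWdr5 (−0.31). Slc2a3, a glucose transporter gene 97537 bp away, was higher with shRybp (0.50), with shWdr5 (0.16), in the phase disruption (0.52), in the knockout (0.072) and between rTRS libraries (0.93), and lower in the TF-AA mutation (−0.48). Gdf3, 16323 bp away, was higher with shRybp and in the knockout (0.19 in each) and lower with shWdr5 (−0.28), with DOX in Tet.RYBP (−0.25) and between rTRS libraries (−0.36).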
